A study of Bos taurus with 2 samples.

Results

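The genes described here encode the lysosome, the proton pump that acidifies it (the V-ATPase) and the trafficking complexes that build melanosomes, and 57 of them were listed by symbol. A probe was assigned to a gene when its accession carried that symbol in the RefSeq table. Of 43639 probes 20587 received a symbol in this way, for 9647 genes. This gave 108 probes for 48 of the 57 genes, and further probes of these genes may lie among those without a symbol. The other 9 genes, HPS3, HPS4, HPS5, BLOC1S2, BLOC1S3, RAB32, RAB38, GLA and TPCN2, were not analysed here. The samples were muzzle (labelled nose) tissue of 2 female HanWoo cows of 30 months, a native Korean breed, 1 with a yellow, light muzzle and 1 with a black-spotted, dark muzzle. Both cows were kept at the same farm, no treatment is named, and each RNA was read alone on 1 Agilent bovine array.

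Levels are given as the log2 of the processed signal, an intensity after background subtraction, relative to the 75th percentile of the array, which stood at an intensity of 1144 for the light and 1137 for the dark muzzle. Pairs of levels are given with the light muzzle first. Log2 ratios are dark over light, so that a positive value marks a gene with the higher level in the dark muzzle. The value of a gene is the mean over its probes that were well above background in both cows. With 1 array per muzzle colour there was no replicate, no test was possible, and each ratio is a difference between 2 animals. In whole tissue, fewer cells of a type and less RNA per cell cannot be told apart. Of the errors at hand, the spread between probes of a gene had a median SD of 0.17 over 35 of the genes. Repeated spots of a probe were closer, with a median SD of 0.049 over 36 probes of the array. The error that the scanning software assigned to the log2 ratio of a probe had a median of 0.20. Its lowest value was also 0.20, so that it was nearly the same for most probes and is not a measured scatter. The epidermal keratins KRT5 and KRT14, which mark the basal layer of a stratified epithelium such as the muzzle, had levels of 6.32 and 7.52 with the light and of 5.80 and 7.12 with the dark muzzle. Other keratinocyte markers went either way, KRT10 from 6.92 (light) to 8.49 (dark) and COL17A1 from 2.22 to 1.41.

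Melanosomes are lysosome-related organelles, and they are made from the endosomes of melanocytes by machinery that most other cells use to make lysosomes. The adaptors AP-1 and AP-3 and the complexes BLOC-1, BLOC-2 and BLOC-3 sort pigment enzymes out of endosomes, and the loss of several of these proteins causes the pale skin and hair of Hermansky-Pudlak syndrome. The V-ATPase is made of a membrane sector, V0, which carries protons, and a cytoplasmic sector, V1, which hydrolyses ATP. Its activity sets the pH at which cathepsins and other hydrolases work in the lysosome and at which tyrosinase is held back in early melanosomes.

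Most of these genes had similar levels in both cows. Of the 48 genes, 1 was at least 2-fold higher with the dark muzzle, against 9.86% of all 8914 genes with a ratio, and 1 was at least 2-fold lower, against 6.47%. AP1S2, a sigma subunit of the AP-1 adaptor, was 2.98-fold higher with the dark muzzle, and NPC2, a lysosomal and secreted cholesterol carrier, was 4.58-fold higher in the light-muzzle cow. A difference of less than 1.5-fold was found for 39 genes (81.3%), compared with 66.5% of all genes. At 1.5-fold, 5 genes were higher (19.8% of all genes) and 4 lower (13.6%) in the dark-muzzle cow. The 5 were AP1S2, CTSC, SNAPIN, ATP6V1B2 and, as a lower bound, CTSL, and the 4 were NPC2, PSAP, NPC1 and CTSK. Under normexp background correction CTSL (0.21), PSAP (-0.54) and CTSK (-0.55) fell short of 1.5-fold, as did CTSL under quantile (0.44) and loess (0.53) normalization. Other genes passed 1.5-fold only under an alternative. Among them were ATP6V1C1 (0.60) under loess normalization, and CTSZ (-0.65) and AP3D1 (-0.60) with the brightest probe. The median log2 ratio of the 48 genes was -0.043, and that of all genes was 0.065. Ratios above 0 were found for 22 of the 48 genes (55.2% of all genes) and below 0 for 26 (44.8%). The SD of the ratios over the 48 genes was 0.56, and over all genes 0.90. The 48 genes were brighter, with median levels of 0.32 (light) and 0.37 (dark), against -1.06 and -0.99 for all genes with a ratio. The part of brightness in these comparisons was not tested. Of their probes measured in both cows, 38.1% differed by more than 2 times the software error. The share was 44.5% among all such probes with a symbol. Of the 35 genes with several probes measured in both cows, 7 had probes on both sides of 0, against 1571 of 5363 such genes over the array. The genes were also readily detected, since 105 of their 108 probes (97.2%) were well above background in both cows, compared with 85.2% of the probes with a symbol. The other 3 probes, of HPS1, VPS18 and CTSL, passed the background threshold in the dark-muzzle cow alone, and their differences are lower bounds.

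**Figure D1:**
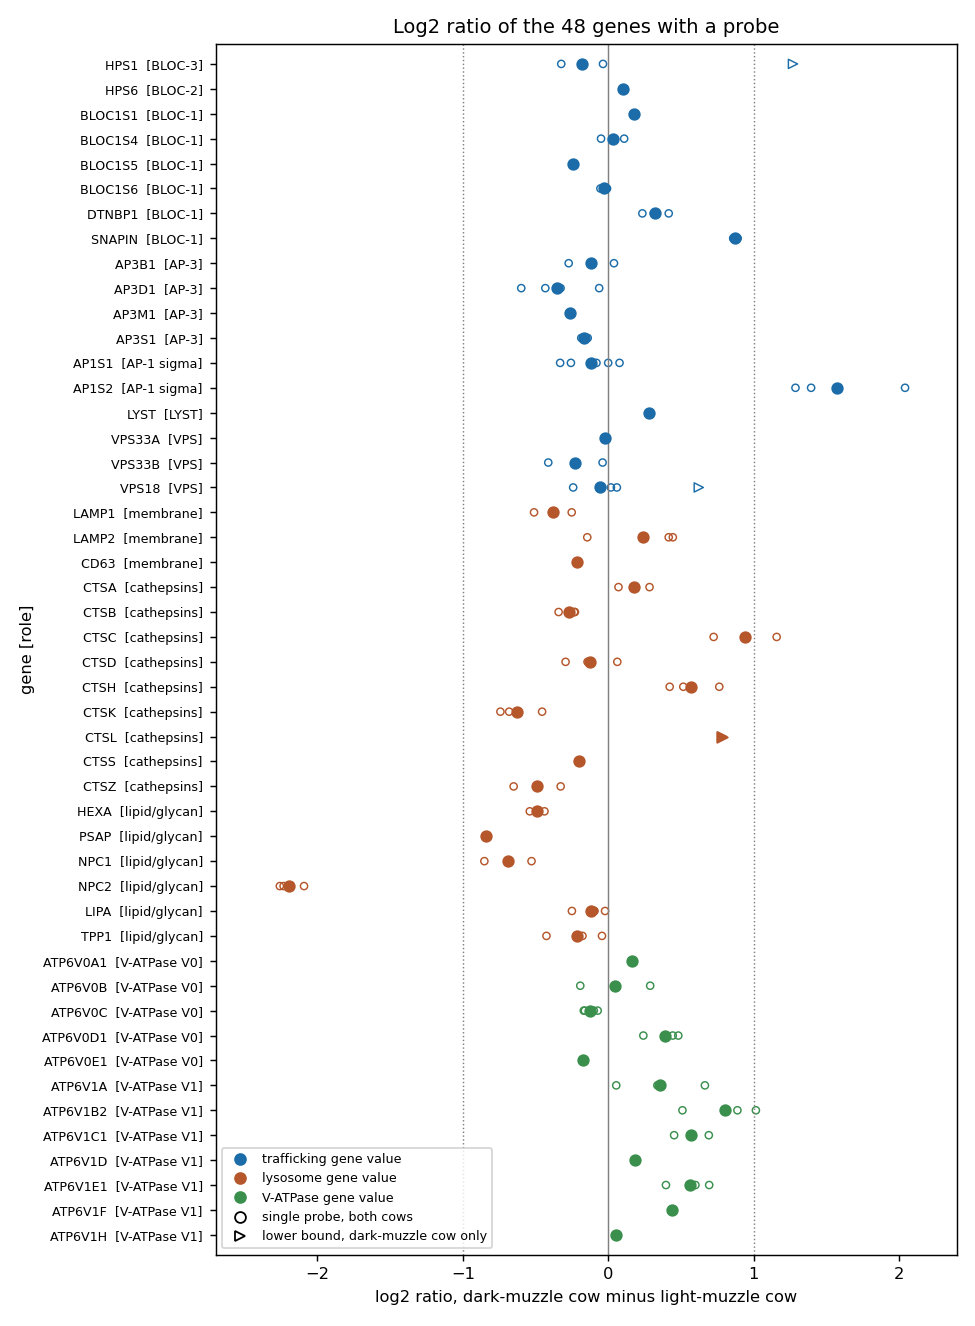
Log2 ratio (dark-muzzle cow minus light-muzzle cow) of the 48 genes with a probe, 1 row a gene with its role in brackets. Filled points are gene values, open circles are single probes measured in both cows, triangles are lower bounds, and dotted lines mark 2-fold; AP1S2 at 1.57 and NPC2 at -2.19 are the gene values outside those lines.

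BLOC-1 acts at tubules that leave the early endosome, and 6 of its 8 subunits had a matched probe. Their median log2 ratio was 0.10. SNAPIN, a subunit that also binds the SNAP-25 fusion protein, was the highest, with levels of 1.98 (light) and 2.85 (dark). Its ratio was 0.87 (1.83-fold), and its 2 probes gave 0.86 and 0.89, so that this difference was far wider than the gap between probes. DTNBP1 (dysbindin) had a smaller ratio of 0.32 and 3 probes from 0.23 to 0.42. BLOC1S1 went from 2.43 to 2.60. BLOC1S5, the lowest of the complex, went from 0.24 to 0.00, a ratio of -0.24. Both differed by about as much as the software error of a probe. BLOC1S4 and BLOC1S6 had ratios of 0.030 and -0.031.

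BLOC-2 targets the carriers to melanosomes, and BLOC-3 activates RAB32 and RAB38 there. Of BLOC-2 only HPS6 was measured, with levels of -0.35 and -0.25 in the light-muzzle and dark-muzzle cow and a ratio of 0.10. Of BLOC-3 only HPS1 was measured, with levels of -1.94 and -2.12 and a ratio of -0.18. Its probes did not point the same way. Those measured in both cows gave -0.32 and -0.036, whereas the dimmest passed the background threshold with the dark muzzle alone and was at least 2.41-fold higher there. When that probe was averaged in, without a filter on dim probes or with levels raised to the detection limit, the ratio of HPS1 was 0.30.

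The AP-3 adaptor sorts cargo such as tyrosinase from endosomes. Its 4 listed subunits were all slightly lower in the dark-muzzle cow, a direction shared by 44.8% of all genes. The large delta subunit AP3D1 had the lowest ratio, -0.36, with levels of 0.72 (light) and 0.36 (dark) and 4 probes from -0.60 to -0.063. AP3M1 followed with -0.26, at 1.99 and 1.72, and its 2 probes lay 0.0035 apart. AP3S1 had a ratio of -0.16 and AP3B1 one of -0.12, the latter from probes at -0.27 and 0.039. None of the 4 gene values reached 1.5-fold, although AP3D1 did with its brightest probe alone (-0.60). The shared direction of the 4 was the same under the 13 alternative settings, several of which left the values unchanged. AP3S2, a further sigma subunit that is on the list of other trafficking genes, had a ratio of 0.046, with 3 probes from -0.0077 to 0.12.

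The sigma subunits of AP-1, which carries cargo between the trans-Golgi network and endosomes, differed from each other. AP1S2 had a level of -1.94 (light) and -0.36 (dark), a ratio of 1.57. Its 3 probes gave 1.29, 1.39 and 2.04, and the highest ratio belonged to the brightest of them, which went from -0.60 to 1.44. AP1S1, its paralogue, was nearly level, at -0.94 and -1.06, with a ratio of -0.12 over 5 probes from -0.33 to 0.077. AP1S3, a further sigma subunit that is on the list of other trafficking genes, was lower in the dark-muzzle cow. It had levels of -1.23 and -2.99, a ratio of -1.76 (3.38-fold lower) and probes at -1.39 and -2.12. The 3 sigma subunits therefore lay at least 2-fold higher, level and at least 2-fold lower. The mu subunits also differed from each other, by less and with neither above 0. AP1M2, the form of epithelial cells, had levels of 2.18 and 1.13 and a ratio of -1.04, and the broadly expressed AP1M1 one of -0.015, while the beta subunit AP1B1 was at 0.088. The ratio of AP1M2 was -0.997, just short of 2-fold, under normexp background correction.

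Of the proteins that tether endosomes to lysosomes, VPS33A had levels of 1.16 and 1.13 and VPS33B levels of -1.37 and -1.60, with ratios of -0.026 and -0.23. VPS18 had a ratio of -0.055 from its 3 probes measured in both cows, and a further dim probe was at least 1.54-fold higher with the dark muzzle. Its sign changed when that probe was averaged in, and also with the median of the 3 probes (0.018). LYST, the regulator of lysosome size that is mutated in Chediak-Higashi syndrome, had a single dim probe at -4.19 and -3.90, not far above the lowest levels called well above background (-5.78 and -5.81). Its ratio of 0.28 was close to the software error of 0.27 for this probe.

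The abundant membrane proteins of the lysosome showed small differences that went both ways. LAMP1 had levels of 2.67 (light) and 2.29 (dark), with a ratio of -0.38 and probes at -0.51 and -0.25. CD63, a tetraspanin of lysosomes and early melanosomes, had levels of 4.08 and 3.87 and a ratio of -0.21. LAMP2 had a mean ratio of 0.24, but this depended on the transcript. The 2 probes for NM_001034570 gave 0.42 and 0.44, and the probe for NM_001113244, another transcript of the same gene, gave -0.14. The latter was the brightest of the 3, so that LAMP2 changed sign when the brightest probe stood for the gene.

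The cathepsins split into genes that were higher and genes that were lower in the dark-muzzle cow. CTSC, the dipeptidyl peptidase that activates serine proteases of leukocytes, had the highest ratio, 0.94 (1.92-fold), with levels of -0.90 and 0.038 and probes at 0.72 and 1.16. CTSH, an aminopeptidase, went from -0.26 to 0.30, a ratio of 0.57 with 3 probes from 0.42 to 0.76. CTSA, a carboxypeptidase that protects other lysosomal enzymes, had a ratio of 0.18. These 3 genes had all probes above 0. On the other side was CTSK, the collagen-degrading cathepsin of osteoclasts and fibroblasts, with levels of 0.084 and -0.54. Its ratio was -0.63, and its probes lay between -0.74 and -0.45. CTSZ followed with a ratio of -0.49, from probes at -0.65 and -0.33. CTSB (-0.27), CTSS (-0.20) and CTSD (-0.12), broadly expressed or macrophage proteases, differed by less than 1.5-fold. The single probe under the symbol CTSL missed the background threshold in the light-muzzle cow and was at least 1.72-fold higher with the dark muzzle, with measured levels of -6.20 and -5.00.

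The symbol CTSL is ambiguous in cattle, since the RefSeq table also lists it as an older name of CTSV. CTSV is among the other hydrolases of the pathway and was clearly detected, with levels of 1.73 (light) and 2.76 (dark). Its ratio was 1.03 (2.04-fold), from 5 probes between 0.86 and 1.32. It was 0.86 with the brightest probe alone.

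The 6 measured genes of the group of lysosomal enzymes and carriers, most of them for lipids and glycans, were all lower in the dark-muzzle cow, as were 44.8% of all genes. Their median ratio was -0.59, and the direction was the same under the 13 alternative settings, several of which left the values unchanged. NPC2 stood apart from the others. It had levels of 3.53 (light) and 1.33 (dark), a ratio of -2.19, and its 3 probes gave -2.09, -2.23 and -2.26. NPC1, the membrane protein to which NPC2 hands its cholesterol, had levels of -0.31 and -0.9995. Its ratio was -0.69 (1.61-fold lower), with probes at -0.85 and -0.53. The partners thus differed in the same direction and by different amounts. PSAP, the precursor of the saposins that assist sphingolipid breakdown, had levels of -2.44 and -3.28 and a ratio of -0.84 from a single probe. HEXA, a subunit of beta-hexosaminidase, had a ratio of -0.49, the peptidase TPP1 one of -0.22, and the acid lipase LIPA one of -0.12 over 4 probes from -0.25 to -0.022.

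**Figure D2:**
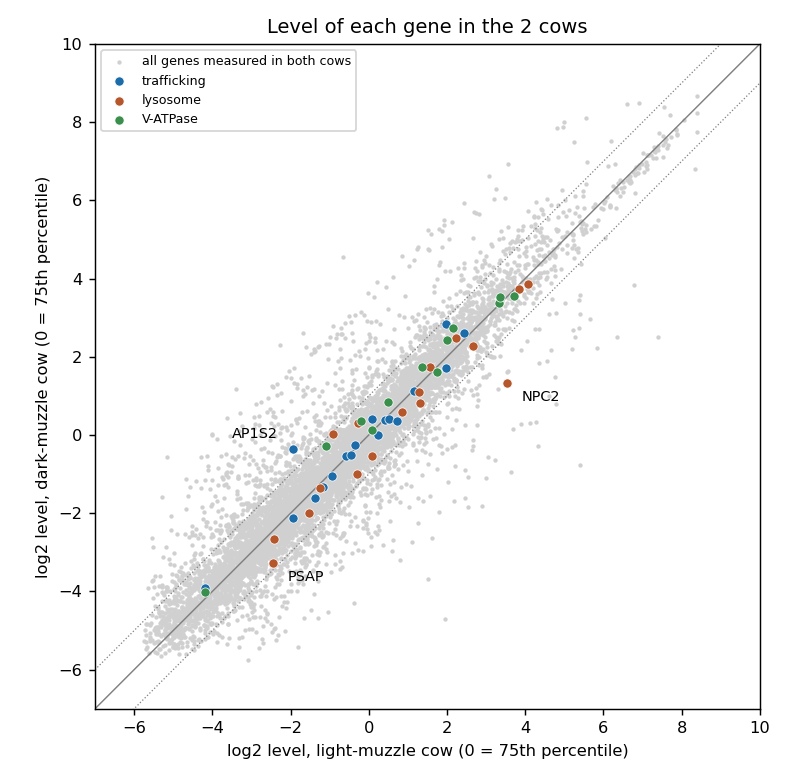
Log2 level of each gene in the light-muzzle cow (x axis) and the dark-muzzle cow (y axis), relative to the 75th percentile of each array, for genes measured in both cows. Coloured points are the genes described here by class, grey points are all genes, the solid line is equality and dotted lines mark 2-fold; NPC2 lies below the band (3.53 and 1.33) and AP1S2 above it (-1.94 and -0.36).

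The 7 measured subunits of the V1 sector of the V-ATPase were all higher in the dark-muzzle cow, whereas 55.2% of all genes had a ratio above 0. All 7 stayed above 0 under the 13 alternative settings, although several of these left the values unchanged. The median ratio of the 7 was 0.44, and it was 0.39 under quantile normalization and 0.45 under normexp background correction. ATP6V1B2, the B subunit of most tissues, had the highest, with levels of -1.08 (light) and -0.28 (dark). The ratio was 0.80 (1.75-fold), from probes at 0.51, 0.89 and 1.01. ATP6V1C1, which regulates the joining of V1 to V0, went from -0.21 to 0.36, a ratio of 0.57. ATP6V1E1, part of the peripheral stalk, went from 2.17 to 2.73, a ratio of 0.56 with 3 probes from 0.40 to 0.69. ATP6V1F (0.44) and the catalytic ATP6V1A (0.35, with probes from 0.055 to 0.66) were intermediate. ATP6V1D (0.19) and ATP6V1H (0.055) had the smallest ratios, within the software error of a probe.

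The 5 subunits of the V0 sector had ratios on both sides of 0, with a median of 0.048. ATP6V0D1, the d subunit that links the sectors, had levels of 1.36 and 1.75, a ratio of 0.39, and 3 probes from 0.24 to 0.48. ATP6V0C, which forms the proton-carrying ring, had levels of 1.74 and 1.61, and its 4 probes lay between -0.17 and -0.073. ATP6V0E1 was the lowest, at 3.72 and 3.55 with a ratio of -0.17. ATP6V0B (0.048) had probes on both sides of 0, and ATP6V0A1 (0.16) was dim, at -4.18 and -4.02. The number of V0 subunits above 0 was 3, and it was 2 under quantile normalization and with the brightest probe of each gene.

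Other V-ATPase genes included subunits of restricted tissues and accessory proteins. Of 13 such genes 11 had a ratio, with 1 at least 2-fold higher (9.86% of all genes) and 1 at least 2-fold lower (6.47%). ATP6V1B1, the B subunit of acid-secreting cells in kidney and other epithelia, went from 1.74 (light) to -0.86 (dark). It was 6.04-fold lower there, with a ratio of -2.59 and 4 probes from -2.88 to -2.38, while its paralogue ATP6V1B2 was higher. ATP6V0D2, the d subunit of osteoclasts and macrophages, was higher in the dark-muzzle cow. It had levels of -5.48 and -3.90 and a ratio of 1.59, and a probe above background in that cow alone gave a lower bound of 1.88. The light-muzzle level was close to the limit of -5.78, and the ratio was 0.72, short of 2-fold, under normexp background correction. Besides ATP6V1B1, the V1 subunits ATP6V1C2 (0.92), ATP6V1G1 (0.67) and ATP6V1G2 (0.64) were above 0, as the listed ones were, and the dim ATP6V1E2 was below (-0.56). The accessory proteins ATP6AP1 and ATP6AP2 had ratios of -0.18 and 0.078. For the a subunit of V0, TCIRG1 had a ratio of -0.41 and ATP6V0A2 one of -0.34.

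**Figure D3:**
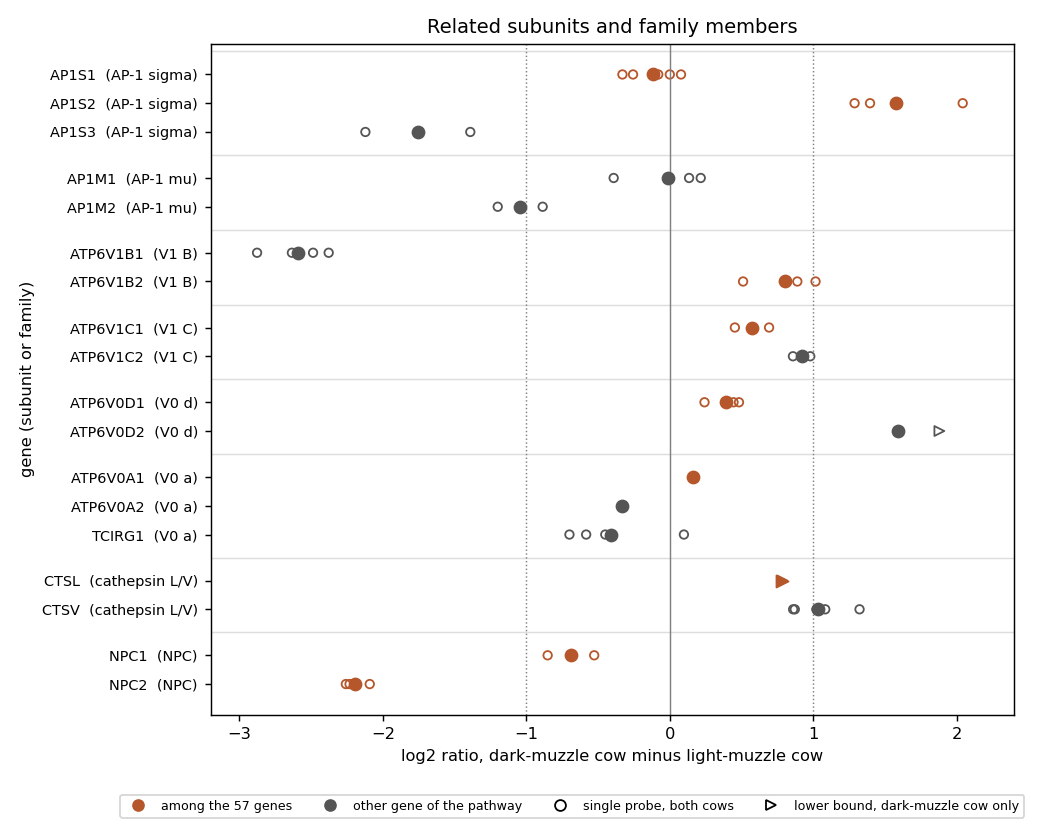
Log2 ratio (dark-muzzle cow minus light-muzzle cow) of related subunits and family members, with the family in parentheses. Filled points are gene values (orange for the 57 genes, grey for others of the pathway), open circles are single probes, triangles are lower bounds and dotted lines mark 2-fold; AP1S2 (1.57) and AP1S3 (-1.76), and ATP6V1B2 (0.80) and ATP6V1B1 (-2.59), lie on opposite sides of 0.

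The remaining genes of the pathway were compared through 4 further lists. Of all genes, 55.2% were above 0 and 44.8% below, 9.86% were at least 2-fold higher and 6.47% at least 2-fold lower. Among other lysosomal hydrolases 27 of 35 had a ratio, and 19 of them were below 0, with a median of -0.25. CTSV was at least 2-fold higher and ACP2, a lysosomal acid phosphatase, at least 2-fold lower, with levels of -1.27 and -2.56 and a ratio of -1.30 from a single probe. Among other lysosomal membrane proteins 10 of 13 were below 0, and the median was -0.13. None of these 13 reached 2-fold, the lowest being CLN3 at -0.99. Among other trafficking genes AP1S3 and AP1M2 were the 2 of 21 past 2-fold, both lower, and 15 were above 0, with a median of 0.089. Of the genes of lysosomal sorting and biogenesis 15 had a ratio, with a median of 0.028. None of the 14 measured in both cows was past 2-fold, and the remaining one, TFEC, had only a lower bound, 0.87. TFEC belongs to the family of MITF, the melanocyte transcription factor, which is related to regulators of lysosomal genes. MITF had levels of -1.39 and -0.53 and a ratio of 0.86, and TFE3, of the same family, one of -0.48.

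Markers of several cell types differed more between the pieces of tissue than the lysosomal genes did. Of all genes, 55.2% were above 0, 9.86% at least 2-fold higher and 6.47% at least 2-fold lower. All 10 measured markers of skeletal muscle were at least 2-fold higher with the dark muzzle (median 3.01, lowest 2.24), and their summed signal was 744514 (light) and 4299050 (dark). Of 7 measured markers of serous glands 5 were at least 2-fold lower and 1 was at least 2-fold higher (median -3.29), with summed signals of 642422 and 41531, and ODAM was above background in neither cow. Of 7 melanocyte markers 4 were at least 2-fold higher, with a median over the 7 of 1.34 and summed signals of 3346 and 6800. The 7 markers ran from -0.52 for DCT to a lower bound of 3.28 for TYRP1. TYRP1 passed the background threshold with the dark muzzle alone. So did 1 of the 2 probes of DCT, with a lower bound of 0.54, and the -0.52 is from the other probe. All 9 endothelial markers were above 0, with a median of 0.75 and summed signals of 33731 and 67278. The 10 macrophage markers lay between -0.33 and 0.51, with summed signals of 8877 and 8726. Fibroblast markers had a median of -0.39, from -0.85 to 1.09, with summed signals of 726055 and 502083. Those of keratinocytes (7 genes) ran from -0.81 for COL17A1 to 1.57 for KRT10, with 4 above 0 and 3 below. Those of mast cells (3 genes) ran from -0.48 to 1.16. In these terms NPC2, ATP6V1B1, AP1S3 and AP1M2 differed in the direction of most gland markers. The gland markers LPO (0.57) and BPIFA1 (1.29) were higher with the dark muzzle. BPIFA1 rests on 1 dim probe at -5.17 (light) and -3.89 (dark), and its light-muzzle level was close to the limit of -5.78. CTSK differed in the direction of most fibroblast markers. AP1S2 and the listed V1 subunits differed in the direction of the muscle, endothelial and most melanocyte markers. Other lists shared these directions, so that none was singled out. Below 0, as NPC2 was, were 7 of 10 fibroblast markers, and above 0, as AP1S2 was, were 4 of 7 keratinocyte markers. The part of these cell types in the differences was not tested.

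**Figure D4:**
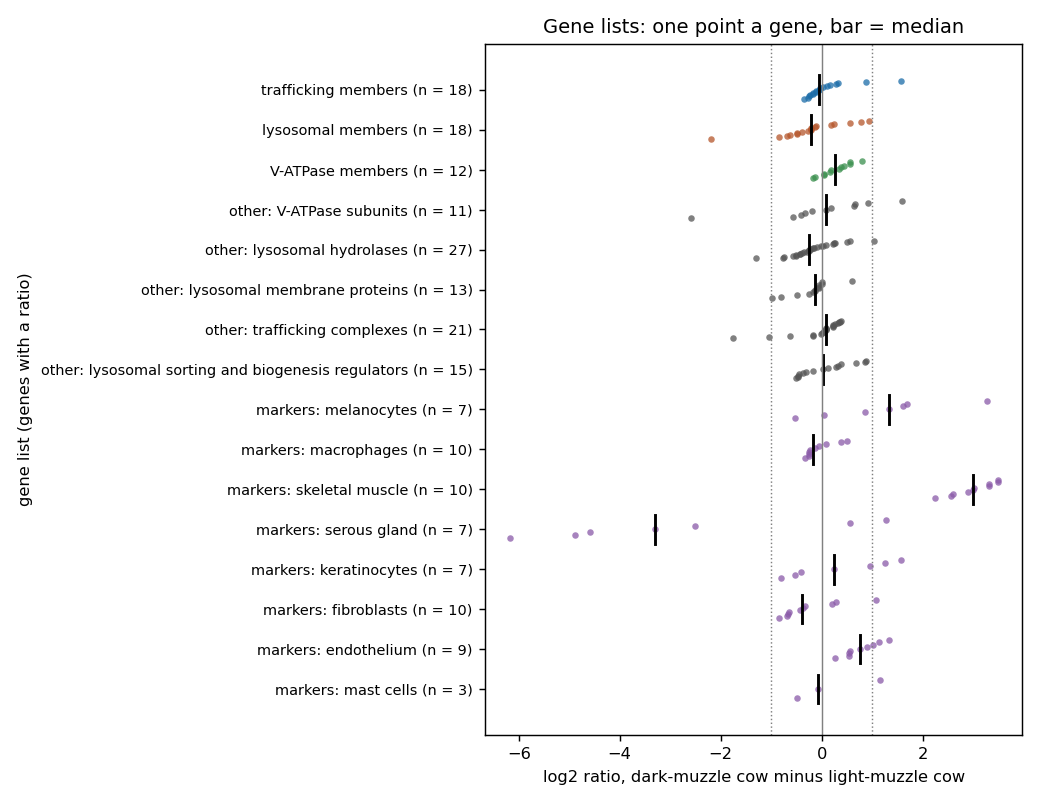
Log2 ratio (dark-muzzle cow minus light-muzzle cow) of the genes of each list, 1 point a gene and a black bar for the median, with the number of genes that had a ratio. The listed trafficking, lysosomal and V-ATPase genes have medians of -0.043, -0.21 and 0.27, compared with 3.01 for skeletal muscle markers and -3.29 for serous gland markers.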

How the data were processed

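RNA of 1 light-muzzle and 1 dark-muzzle cow was measured on 1-colour Agilent arrays of the same slide. The authors deposited Feature Extraction 10.7.3.1 output, whose processed signal gives the intensity of a spot once background and spatial trend had been removed, with its error. They also deposited a table of log2 values made in GeneSpring, of which 43627 of 43639 probes lay within 0.01 of the levels used here. It served as an alternative.

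Processed signals were put on the log2 scale and shifted by the 75th percentile of noncontrol spots. Control spots and 13 outlier spots per array were dropped, and repeated spots were averaged by probe. Accessions (9688 matched) were named through the RefSeq table of ARS-UCD2.0, since the scanner files hold no gene names. A gene's ratio is the mean over probes well above background in both cows. Otherwise it is the largest lower bound, the bright level against the lowest level well above background or the dim level, whichever is higher. No spot was saturated (0 of 43803). With 1 array per group, whose number limits the precision, no test was made. Named genes were those past 2-fold, those with a probe past it or a dim probe, the extremes of each role, and other pathway genes past 2-fold. The members, lists and rule were chosen with earlier results of these data known. Alternatives were run with limma 3.58.1 in R 4.3.3 (quantile, loess with span 0.3, and normexp with offset 50, on the median pixel signal) and otherwise in pandas 2.3.3 with numpy 2.4.6 under Python 3.11.15. The calculation of gene values was checked on simulated data with planted differences, which gives no error for the measured ratios.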

Additional observations from a re-analysis of the deposited data

How the results depend on the processing

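The number of genes at least 2-fold higher with the dark muzzle, 1 as reported (AP1S2), was 2 without a filter on dim probes (with CTSL, 1.20), 2 with the brightest probe of each gene (with ATP6V1B2, 1.01) and 2 when older symbols were matched too (with CTSL, 1.03, through CTSV), and the number at least 2-fold lower stayed at 1. With a threshold of 1.5-fold the numbers were 5 higher and 4 lower, and with 3-fold 0 higher and 1 lower. The median ratio of the genes moved between -0.16 and 0.0020 over 13 settings. Of 596 values of 46 named genes under these settings, 557 moved by less than the spread between probes and 39 by more, and no gene past 2-fold changed sign. Many of these values could not move, since several settings left them unchanged, such as the choice of probe for a gene with 1 probe. Where a gene had no spread between probes, the median spread of 0.17 was used. The bound of CTSL ranged from 0.21 to 1.20, and PSAP was at -0.60 with older symbols, which added a probe set of SFTPA1. Over all genes, 577 were at least 2-fold lower as reported and 371 under normexp background correction. The match by a gene name column was not run, because the files used here hold none. Signal over background limits LYST, ATP6V0A1, ATP6V0D2, CTSL, the gland marker BPIFA1 and the dimmest probes of HPS1 and VPS18. No paired analysis was possible because each group held 1 cow.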
